A study of Mus musculus with 18 samples.

Results

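The Krüppel-like factors described here are 8 zinc-finger transcription factors, Klf2, Klf3, Klf4, Klf5, Klf6, Klf9, Klf10 and Klf11, in mouse pluripotent stem cell lines. Every probe set that the platform annotation assigns to a single symbol among these 8 was taken, which gave 27 of the 45037 non-control probe sets of an Affymetrix expression array, and 8 of the 18193 genes with such a probe set. Klf3 and Klf9 had 7 probe sets each, Klf6 had 5, Klf5 had 3, Klf4 had 2, and Klf2, Klf10 and Klf11 had 1 each. Total RNA came from 6 lines with 3 arrays each. The 4 induced pluripotent stem (iPS) lines were IP14D-1, IP20D-3 and IP36D-3, all with the strain label B6 x D2 F1, and IP14D-101, labelled B6 x 129S2 F1. The 2 embryonic stem (ES) lines were R1, labelled 129X1/SvJ x 129S1 F1, and ESC2, labelled B6 x D2 F1. All lines grew with leukaemia inhibitory factor (LIF) on feeder layers of mitomycin C-treated embryonic fibroblasts, in fetal bovine serum or in a serum substitute. Which of these media a given line had, and which reprogramming factors made the iPS lines, is not stated in the labels. Each group is a single line, so a difference between lines cannot be told apart from the strain, derivation or culture of that line. The series calls the arrays of a line biological replicates, but no label ties them to separate cultures, so p-values measure the spread between arrays, which may be technical. Feeder fibroblasts may be part of each RNA sample, and in such bulk RNA fewer cells of a type and less RNA per cell cannot be told apart.

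Krüppel-like factors bind GC-rich and CACCC-type DNA through 3 C-terminal zinc fingers, and their N-terminal parts recruit activators or repressors. In mouse ES cells Klf2, Klf4 and Klf5 act in the self-renewal network: Klf4 is induced by LIF through Stat3, Klf2 is tied to the naive ground state, and Klf5 overlaps with both in its targets. Klf4 is also one of the classical reprogramming factors. Klf3 is a repressor that works with the corepressor CtBP, Klf9, Klf10 and Klf11 are repressors that recruit Sin3a, and Klf10 and Klf11 are known as genes induced by transforming growth factor beta (TGF-beta). Klf6 is a broadly expressed, serum-responsive activator, and Klf9 is a target of glucocorticoid receptors.

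Upstream sequence is shown for 3 members whose levels separated the lines: Klf2 and Klf4, which ranked the lines much alike, and Klf11, which had the widest range. The sequences are the 250 bases before the annotated transcription start, read 5′ to 3′ on the gene's strand from RefSeq, build GRCm38.p6. Capitals mark GC boxes, the letters GGGCGG on either strand, a core that Sp and Krüppel-like proteins can bind.
Klf2, chr8:72318812-72319061, plus strand: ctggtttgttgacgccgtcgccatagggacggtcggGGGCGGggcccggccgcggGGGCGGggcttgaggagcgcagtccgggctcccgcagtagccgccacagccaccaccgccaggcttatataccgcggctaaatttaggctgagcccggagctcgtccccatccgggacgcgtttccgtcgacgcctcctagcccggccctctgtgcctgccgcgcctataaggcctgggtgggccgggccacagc
Klf4, chr4:55532476-55532725, minus strand: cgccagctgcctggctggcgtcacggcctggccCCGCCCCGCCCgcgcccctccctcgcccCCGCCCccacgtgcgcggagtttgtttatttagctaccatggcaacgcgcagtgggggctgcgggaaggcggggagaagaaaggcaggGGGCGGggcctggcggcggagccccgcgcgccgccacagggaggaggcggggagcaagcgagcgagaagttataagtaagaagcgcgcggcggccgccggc
Klf11, chr12:24651121-24651370, plus strand: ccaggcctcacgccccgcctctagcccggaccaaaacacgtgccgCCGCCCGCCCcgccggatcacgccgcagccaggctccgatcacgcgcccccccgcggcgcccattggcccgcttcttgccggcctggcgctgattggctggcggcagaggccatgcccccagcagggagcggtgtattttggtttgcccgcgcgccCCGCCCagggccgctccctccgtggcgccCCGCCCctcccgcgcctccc
The Klf2 window held 2 GC boxes, the Klf4 window 4 and the Klf11 window 4. Of the 6 members found in the promoter table, Klf3 had 6, Klf6 had 1 and Klf9 had 0, while Klf5 and Klf10 were not matched. A GC box was present in 32.7% of all 32851 windows of the same length. These windows were GC-rich, with 71.2% GC for Klf2, 74.0% for Klf4 and 76.8% for Klf11, against a median of 52.4% over all windows. The STAT-type letters TTCNNNGAA, searched on both strands, occurred once in the Klf9 window and in none of the other 5 matched windows, against 7.02% of all windows. The CACCC box, searched on both strands, was in the windows of Klf2, Klf3 and Klf9, with 1, 5 and 1 matches, against 52.0% of all windows.

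Values are log2 of the deposited intensities, and levels are compared between lines within a probe set, never between probe sets. Array medians on this scale lay between 4.86 and 4.93, and the number of arrays limits the precision. Of the 27 Klf probe sets, 22 had a mean over the 18 arrays of at least 6, against 36.1% of all probe sets, and 5 lay below it. A difference was called at an adjusted p under 0.05 with a log2 difference of at least 1, by limma with Benjamini-Hochberg adjustment over all 45037 probe sets. The mean of 8 pluripotency markers was at least 11.26 on every array. No non-pluripotent sample was analysed here, so this level does not test the label of the lines. Among these markers Zfp42 ranged from 9.11 in ESC2 to 11.24 in R1. The mean of 12 primitive and visceral endoderm markers was higher in IP14D-101, at 6.98 to 7.18 per array, than in the other 5 lines, at 4.97 to 5.53. Of the 12, 8 were called higher in IP14D-101 than in ESC2, R1 and IP14D-1 and 7 than in IP20D-3 and IP36D-3, with 0 lower, while Afp was at 3.94 in IP14D-101 and Lrp2 was at 8.42, against 8.91 in R1. Replicate 3 of IP14D-101 stood apart from its line, with a lowest within-line correlation of 0.9901 over all probe sets, against at least 0.9943 in each other line, and a limma array weight of 0.29, on a scale where a typical array has 1. Without it the calls of Klf probe sets over the 15 contrasts numbered 82, against 83 with all arrays. The ratio of 3′ to 5′ actin signal, a sign of RNA integrity, averaged 1.53 ± 0.04 in ESC2 (SD, n = 3) and between 1.13 and 1.28 in the other lines. The 18S ribosomal control read 168.0 to 186.3 in ESC2, 82.2 to 326.5 in IP20D-3, and 18.5 to 149.9 across the other 4 lines.

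Most Krüppel-like factors differed among the lines. By limma's moderated F test over the 6 line means, with a range of line means of at least 1, 19 of the 27 Klf probe sets were called, against a background of 24.2% of all probe sets. This background, like those below, is not matched for level: 22 of the 27 had a mean of at least 6, against 36.1% of all probe sets. The 27 are also not independent, since Klf3 and Klf9 have 7 each. With each gene stood for by its brightest probe set, 7 of the 8 genes were called, and Klf3 was not. The share of all genes called in that way was not computed, so no background stands beside this count. By the adjusted p alone, 25 of the 27 passed, against 70.5% of all probe sets. Over all 27 the range of line means was widest for Klf11, at 2.75, followed by 2.36 for a secondary Klf9 probe set, 1422264_s_at, and then by Klf2 at 2.13, Klf10 at 2.12 and Klf5 at 2.06. ESC2 was the lowest line for Klf2, Klf4, Klf5, Klf10 and Klf11, R1 for Klf9, IP14D-101 for Klf6 and IP36D-3 for Klf3. ESC2 was the lowest of the 6 lines in 10 of the 27 Klf probe sets, against 24.4% of all probe sets.

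**Figure D1:**
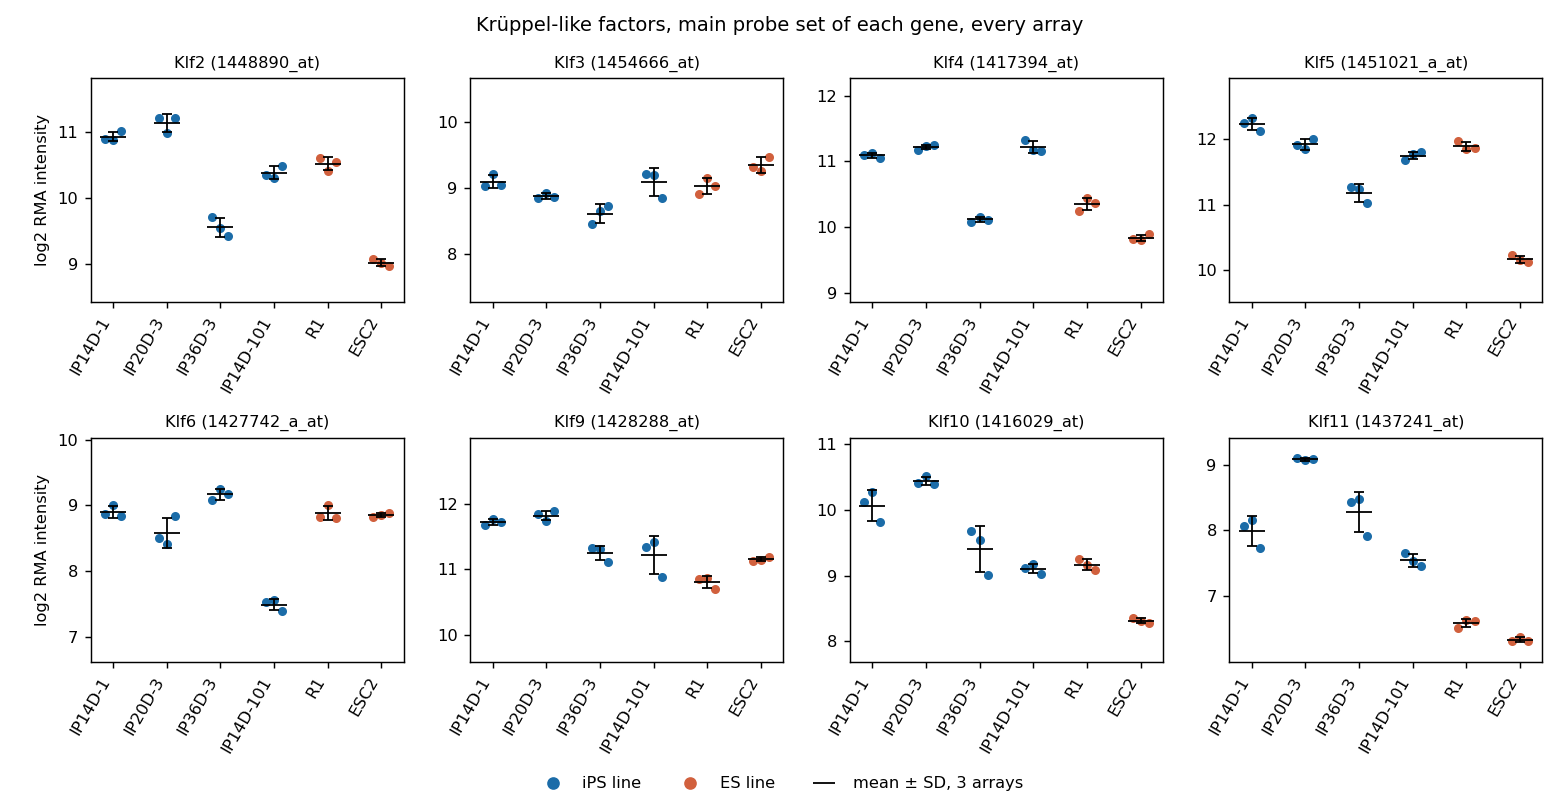
Log2 intensity of the brightest probe set of each of the 8 genes on all 18 arrays, grouped by line; points are arrays, and the black marks are the line mean ± SD. The ESC2 arrays lie below those of every other line for Klf2, Klf4, Klf5, Klf10 and Klf11, and the IP14D-101 arrays lie below all others for Klf6.

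Klf2, the factor most closely tied to the naive state, was highest in IP20D-3 and IP14D-1 and lowest in ESC2. Its log2 intensities were 11.22, 10.99 and 11.22 in IP20D-3, 10.91, 10.89 and 11.02 in IP14D-1, 9.71, 9.55 and 9.42 in IP36D-3, 10.36, 10.31 and 10.49 in IP14D-101, 10.61, 10.42 and 10.55 in R1, and 9.08, 9.01 and 8.97 in ESC2. No array of ESC2 reached an array of another line, and IP36D-3 lay between ESC2 and the rest. Klf2 was 4.36-fold higher in IP20D-3 than in ESC2, a log2 difference of 2.12 ± 0.09 (SE, adjusted p = 1.18e-11). The difference from ESC2 was 1.92 ± 0.09 in IP14D-1, 1.37 ± 0.09 in IP14D-101 and 1.502 ± 0.09 in R1, all called. In IP36D-3 it was 0.54 ± 0.09 (adjusted p = 0.000191), short of the fold required. In the order of levels, IP20D-3 and IP14D-1 did not separate (adjusted p = 0.0913), nor did R1 and IP14D-101 (adjusted p = 0.398), while each other pair of neighbours did. Klf2 lies on chromosome 8, where genes of IP36D-3 were shifted as a whole. The 500 genes there with a mean of at least 6 had a median difference from ESC2 of 0.56, against 0.10 on other chromosomes. That median was 0.255 in IP20D-3 (other chromosomes 0.028), 0.202 in R1 (0.046), 0.119 in IP14D-101 (0.041) and 0.014 in IP14D-1 (-0.019). The Klf2 difference of 0.54 in IP36D-3 is close to the shift of that line, whose part in it was not tested. Between IP20D-3 and IP36D-3, Klf2 was higher by 1.58 ± 0.09, whereas the chromosome 8 median of that contrast was -0.30.

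Klf4, the LIF and Stat3 target and reprogramming factor, divided the lines into a high and a low group. Its brighter probe set, 1417394_at, read 11.18, 11.24 and 11.24 in IP20D-3, 11.10, 11.13 and 11.05 in IP14D-1, 10.09, 10.16 and 10.11 in IP36D-3, 11.33, 11.17 and 11.15 in IP14D-101, 10.25, 10.44 and 10.37 in R1, and 9.82, 9.80 and 9.89 in ESC2. The arrays of IP14D-1, IP20D-3 and IP14D-101 all lay above those of IP36D-3, R1 and ESC2. Relative to ESC2, Klf4 was higher by 1.25 ± 0.07 in IP14D-1, 1.38 ± 0.07 in IP20D-3 and 1.38 ± 0.07 in IP14D-101, about 2.6-fold in the last (adjusted p = 1.65e-10). IP36D-3 and R1 were above ESC2 by 0.28 ± 0.07 and 0.51 ± 0.07, neither of them called. The 3 high lines did not separate from each other at neighbouring ranks, with an adjusted p of 0.986 for IP20D-3 beside IP14D-101 and 0.224 for IP14D-101 beside IP14D-1. The low lines did, without array overlap but by less than the fold required. Their adjusted p was 0.0170 for R1 beside IP36D-3 and 0.00767 for IP36D-3 beside ESC2. The second probe set, 1417395_at, ranked the lines much alike (r = 0.976 over 6 line means of the same arrays) and gave the same sign in 14 of 15 contrasts. Its difference from ESC2 was 1.37 ± 0.10 in IP14D-1, 1.42 ± 0.10 in IP20D-3, 0.53 ± 0.10 in IP36D-3, 1.61 ± 0.10 in IP14D-101 and 0.86 ± 0.10 in R1.

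Klf5, which shares targets with Klf2 and Klf4 in ES cells, was lower in ESC2 than in all other lines. Its brightest probe set, 1451021_a_at, had log2 intensities of 11.90, 11.84 and 11.999 in IP20D-3, 12.24, 12.31 and 12.13 in IP14D-1, 11.26, 11.24 and 11.02 in IP36D-3, 11.68, 11.76 and 11.79 in IP14D-101, 11.96, 11.84 and 11.86 in R1, and 10.23, 10.16 and 10.12 in ESC2. This was the 1 Klf probe set of 27 called higher against ESC2 in all 5 other lines, against 0.122% of all probe sets. The 5 comparisons share the ESC2 arrays. IP14D-1 exceeded ESC2 4.17-fold, with a log2 difference of 2.06 ± 0.08 (adjusted p = 4.12e-11), IP20D-3 by 1.75 ± 0.08, IP14D-101 by 1.58 ± 0.08 and R1 by 1.72 ± 0.08. The smallest difference, 1.00 ± 0.08 in IP36D-3, sits at the fold required and dropped under it when 1 of 4 arrays was left out. It was 0.962 without IP36D-3 replicate 1, 0.973 without IP36D-3 replicate 2, 0.981 without ESC2 replicate 3 and just under 1 without ESC2 replicate 2 or with log2(intensity + 16). In the order of levels IP20D-3, R1 and IP14D-101 did not separate at neighbouring ranks, with adjusted p of 0.810 and 0.311. A second Klf5 probe set, 1451739_at, showed another order (r = 0.149 with the first over 6 line means), with IP20D-3 highest at 7.96 ± 0.31 and IP14D-101 lowest at 6.77 ± 0.28 (SD, n = 3 each). Its differences from ESC2 ran from -0.20 in IP14D-101 to 0.98 in IP20D-3, and none was called. The third, 1430255_at, stayed between 3.40 and 3.64 in line mean, under the array median.

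The low ESC2 values of these 3 genes, and those of Klf10 and Klf11 described next, came from arrays that also had the highest actin 3′ to 5′ ratio of the series and a high 18S signal. IP20D-3, with 18S readings of 82.2, 144.2 and 326.5, was among the highest lines for Klf2 and Klf4. IP36D-3, with readings of 86.4, 101.3 and 149.9, was by brightest probe set the lowest line after ESC2 for Klf2, Klf4 and Klf5. The part of RNA quality in the differences was not tested. Over the 6 line means, Pearson's r was 0.939 between Klf2 and Klf5, 0.868 between Klf2 and Klf4, and 0.804 between Klf4 and Klf5, in values that share arrays and lines.

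Klf10, a TGF-beta-inducible repressor, was again lowest in ESC2. Its log2 intensities were 10.40, 10.51 and 10.39 in IP20D-3, 10.11, 10.27 and 9.81 in IP14D-1, 9.67, 9.53 and 9.01 in IP36D-3, 9.12, 9.17 and 9.03 in IP14D-101, 9.25, 9.16 and 9.09 in R1, and 8.36, 8.31 and 8.28 in ESC2. IP20D-3 was highest and IP14D-1 followed, with no overlap between the arrays of the pair. The difference from ESC2 was 2.12 ± 0.14 in IP20D-3, a 4.34-fold higher level (adjusted p = 1.11e-09), and 1.75 ± 0.14 in IP14D-1. In IP36D-3 it was 1.09 ± 0.14, also called, but 0.955 without IP36D-3 replicate 1. IP14D-101 and R1 differed from ESC2 by 0.79 ± 0.14 and 0.85 ± 0.14, below the fold required. The arrays of IP36D-3 overlapped those of R1 (adjusted p = 0.176), and those of R1 overlapped those of IP14D-101 (adjusted p = 0.836). IP20D-3 exceeded IP36D-3 by 1.03 ± 0.14, which was 0.993 without IP20D-3 replicate 2 and 0.832 without IP36D-3 replicate 3.

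Klf11, the close relative of Klf10 and also TGF-beta-inducible, had the widest range of the family. Its probe set read 9.11, 9.06 and 9.08 in IP20D-3, 8.07, 8.16 and 7.74 in IP14D-1, 8.43, 8.48 and 7.92 in IP36D-3, 7.66, 7.53 and 7.46 in IP14D-101, 6.52, 6.64 and 6.62 in R1, and 6.31, 6.38 and 6.32 in ESC2. Every iPS array lay above every ES array. In IP20D-3 Klf11 was 6.71-fold above ESC2, a log2 difference of 2.75 ± 0.13 (adjusted p = 2.00e-11), and 2.49 ± 0.13 above R1 (adjusted p = 3.57e-11). The other iPS lines were called higher than ESC2 as well, by 1.65 ± 0.13 in IP14D-1, 1.94 ± 0.13 in IP36D-3 and 1.21 ± 0.13 in IP14D-101. Against R1, IP14D-1 was higher by 1.40 ± 0.13 and IP36D-3 by 1.69 ± 0.13, both called, and IP14D-101 by 0.96 ± 0.13, under the fold required. R1 and ESC2 did not separate, with a difference of 0.26 ± 0.13 (adjusted p = 0.105), though their arrays did not overlap. Among the iPS lines IP20D-3 stood above IP36D-3 by 0.80 ± 0.13, while IP36D-3 and IP14D-1 overlapped (adjusted p = 0.0941). IP14D-1 was called lower than IP20D-3, with a difference of -1.09 ± 0.13, or -0.965 without IP14D-1 replicate 3. Klf10 and Klf11 correlated at r = 0.872 over the 6 line means.

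Klf6, the serum-responsive activator, was lower in IP14D-101 than in every other line. Its brightest probe set, 1427742_a_at, had log2 intensities of 7.53, 7.55 and 7.39 in IP14D-101, 8.50, 8.41 and 8.84 in IP20D-3, 8.87, 9.004 and 8.83 in IP14D-1, 9.08, 9.25 and 9.17 in IP36D-3, 8.82, 9.01 and 8.81 in R1, and 8.82, 8.85 and 8.88 in ESC2. The IP14D-101 arrays fell below all others, and the remaining 5 line means lay between 8.58 and 9.17. The difference was -1.41 ± 0.10 from IP14D-1, -1.09 ± 0.10 from IP20D-3, -1.67 ± 0.10 from IP36D-3, -1.39 ± 0.10 from R1 and -1.35 ± 0.10 from ESC2, each called. The last one amounts to a level 0.391 times that of ESC2 (adjusted p = 7.83e-09). The difference from IP20D-3 was -0.960 without IP20D-3 replicate 3. Leaving out IP14D-101 replicate 3, the array that stood apart, gave -1.31 against ESC2.

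Of the other Klf6 probe sets, 3 repeated this pattern. 1433508_at averaged 6.30 ± 0.25 in IP14D-101 and 7.93 ± 0.07 in ESC2, 1447448_s_at averaged 5.67 ± 0.23 and 7.60 ± 0.10 in the same lines, and 1418280_at averaged 5.42 ± 0.17 and 6.60 ± 0.18 (SD, n = 3 each). Their differences from ESC2 were -1.63 ± 0.14, -1.93 ± 0.14 and -1.18 ± 0.15, and without IP14D-101 replicate 3 they were -1.48, -1.80 and -1.14. With log2(intensity + 16) in place of log2 intensity, 1418280_at fell short of the fold required, at -0.939 against ESC2 and -0.883 against IP20D-3. All 3 were called lower in IP14D-101 against the other 5 lines, with the exception of 1433508_at against IP20D-3, at -0.88 ± 0.14. The difference of 1418280_at from IP20D-3, -1.11, was -0.903 without IP20D-3 replicate 3 and -0.950 with array weights. The fifth probe set, 1459718_x_at, was far under the array median, with line means from 2.41 to 2.96. IP14D-101 is also the line with raised endoderm markers and the only one labelled B6 x 129S2 F1. In it Cubn averaged 9.56, Lama1 9.35, Dab2 8.92 and Gata6 7.34 in log2 intensity, the 4 of the 8 called endoderm markers that differed most from ESC2. The level of 20 fibroblast markers also differed between the lines. Its mean per array was 5.02 to 5.23 in IP14D-101, 5.81 to 5.92 in IP14D-1, 4.51 to 4.72 in IP20D-3, 4.76 to 4.87 in IP36D-3, 5.27 to 5.35 in R1 and 5.53 to 5.66 in ESC2. The part of endoderm-like cells and of feeder RNA in the Klf6 difference was not tested, and line and strain cannot be told apart.

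Klf9, the glucocorticoid target, was lowest in R1. Its brightest probe set, 1428288_at, read 11.84, 11.74 and 11.88 in IP20D-3, 11.68, 11.77 and 11.72 in IP14D-1, 11.32, 11.30 and 11.12 in IP36D-3, 11.33, 11.42 and 10.88 in IP14D-101, 10.86, 10.87 and 10.70 in R1, and 11.13, 11.14 and 11.19 in ESC2. IP20D-3 and IP14D-1 were highest and overlapped, IP36D-3, IP14D-101 and ESC2 formed a middle group, and R1 lay below all of them. IP20D-3 exceeded R1 by 1.01 ± 0.11 (adjusted p = 5.29e-07), the 1 called contrast of this probe set. It was 0.954 without R1 replicate 3, 0.977 without IP20D-3 replicate 3 and 0.998 without IP20D-3 replicate 1. R1 was the lowest line in 6 of the 7 Klf9 probe sets. The R1 difference from ESC2 was -0.34 ± 0.11 for 1428288_at, -0.47 ± 0.10 for 1428289_at, -0.39 ± 0.11 for 1436763_a_at and -0.24 ± 0.10 for 1436952_at, none of them called. It was called for 1456341_a_at alone, at -1.15 ± 0.10 (adjusted p = 5.35e-08). IP20D-3 was called above R1 for 5 Klf9 probe sets, with differences of 1.01, 1.41, 1.02, 1.08 and 1.46. The third of these, 1428289_at, was just under 1 without R1 replicate 3 and 0.961 without IP20D-3 replicate 3. The second and the fifth, 1456341_a_at and 1436952_at, stayed at 1.35 to 1.46 and 1.44 to 1.47 whichever array was left out.

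The probe set 1422264_s_at gave a different picture of Klf9. It read 8.49, 8.32 and 8.36 in IP20D-3, 10.00, 10.11 and 9.78 in IP14D-1, 7.51, 7.75 and 7.53 in IP36D-3, 9.06, 9.04 and 8.77 in IP14D-101, 8.51, 8.76 and 8.62 in R1, and 8.28, 8.46 and 8.36 in ESC2. IP14D-1 stood alone at the top and IP36D-3 alone at the bottom, a difference of 2.36 ± 0.11 or 5.14-fold (adjusted p = 1.05e-10). Over the 6 line means it correlated with 1428288_at at r = 0.339 and shared its sign in 8 of 15 contrasts. IP14D-1 also exceeded ESC2 by 1.59 ± 0.11 and R1 by 1.34 ± 0.11. IP14D-101 was called lower than IP14D-1, with a difference of -1.01 ± 0.11, which was -0.993 without IP14D-1 replicate 1, -0.935 without IP14D-1 replicate 2 and -0.916 without IP14D-101 replicate 3. IP14D-1 was the line with the highest fibroblast marker level, given above with Klf6, and the part of feeder RNA was not tested. The array annotation used here gives no position of these probe sets within the Klf9 transcripts. The seventh, 1452723_at, had line means between 3.91 and 4.57, under the array median.

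Klf3, the CtBP-binding repressor, differed little by its brightest probe set and more by others. The brightest, 1454666_at, read 8.85, 8.92 and 8.85 in IP20D-3, 9.02, 9.21 and 9.05 in IP14D-1, 8.45, 8.64 and 8.72 in IP36D-3, 9.21, 9.20 and 8.85 in IP14D-101, 8.90, 9.14 and 9.02 in R1, and 9.32, 9.25 and 9.47 in ESC2. ESC2 was highest and IP36D-3 lowest, a span of 0.74 in line mean, and none of its 15 contrasts was called. The 2 next brightest went the other way, with ESC2 lowest. For 1431630_a_at the difference from ESC2 was 1.10 ± 0.08 in IP14D-1, 1.88 ± 0.08 in IP20D-3, 0.78 ± 0.08 in IP36D-3, 1.30 ± 0.08 in IP14D-101 and 1.10 ± 0.08 in R1, called in all but IP36D-3. For 1421604_a_at it was 1.10 ± 0.08, 0.75 ± 0.08, 0.57 ± 0.08, 1.40 ± 0.08 and 1.46 ± 0.08 in the same order of lines, called in IP14D-1, IP14D-101 and R1. Their correlation with 1454666_at over line means was -0.433 and -0.132. The other 4, 1429360_at, 1441200_at, 1442920_at and 1458487_at, spanned 0.36 to 0.94 in line mean and had no called contrast. No single direction for Klf3 is therefore given.

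**Figure D2:**
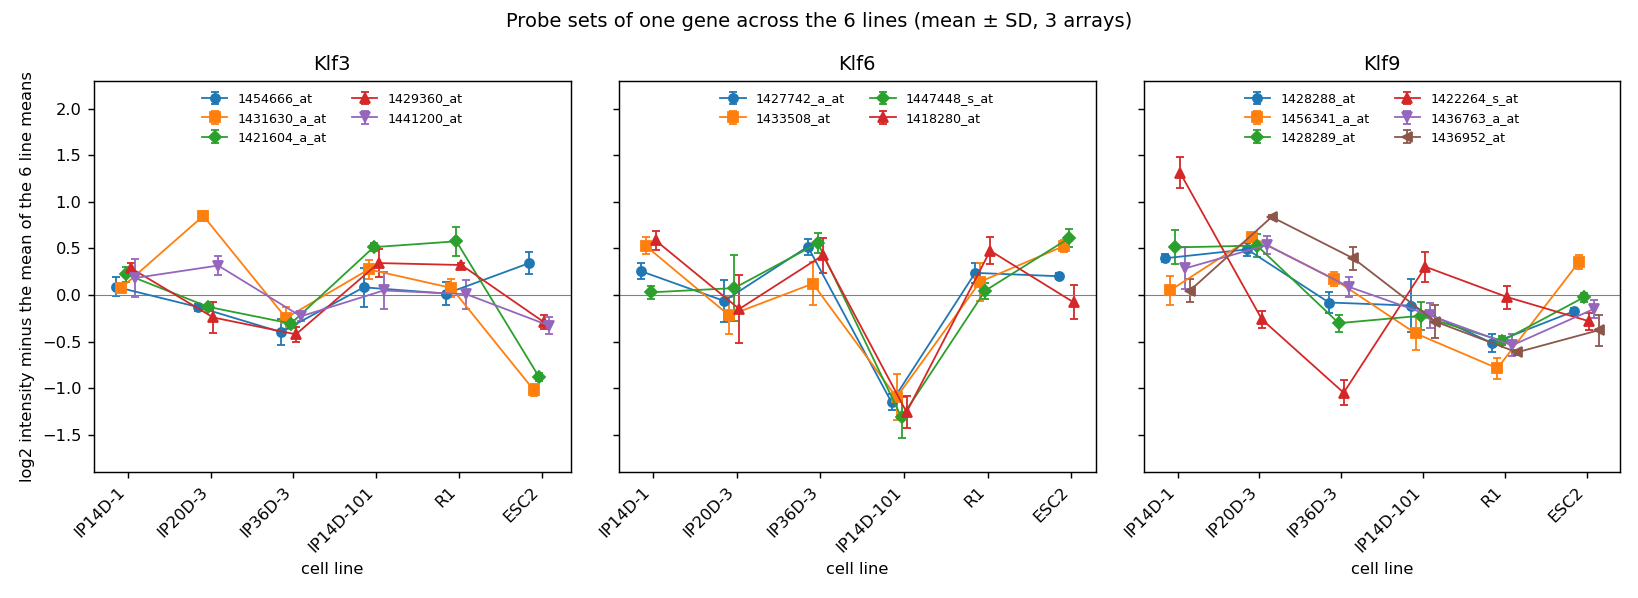
Line mean ± SD (3 arrays) of each Klf3, Klf6 and Klf9 probe set with a mean of at least 6, in log2 units and set against that probe set's own mean over the 6 lines, with 1 panel per gene and 1 colour per probe set. The 4 Klf6 probe sets all dip in IP14D-101, whereas those of Klf3 and Klf9 order the lines differently, with Klf9 1422264_s_at highest in IP14D-1 and lowest in IP36D-3.

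Against ESC2, the ES line that shares its B6 x D2 F1 label with 3 of the iPS lines, Klf probe sets were called higher more often than lower. In IP14D-1, 9 of 27 were called higher, against 1.59% of all probe sets, and 0 lower, against 1.67%. IP20D-3 had 8 higher (all probe sets 4.25%) and 0 lower (3.41%). IP36D-3 had 3 higher (1.49%) and 0 lower (2.09%), IP14D-101 had 7 higher (3.44%) and 4 lower (5.88%), and R1 had 4 higher (3.23%) and 1 lower (5.78%), with the share of all probe sets in parentheses. The 3 calls in IP36D-3, for Klf5, Klf10 and Klf11, became 1 without IP36D-3 replicate 1. The shares of all probe sets are not matched for level, and Klf probe sets of the same gene are not independent of each other. By brightest probe set, the median difference over the 8 genes was 1.45 in IP14D-1, 1.56 in IP20D-3, 0.43 in IP36D-3, 1.00 in IP14D-101 and 0.38 in R1. The median over all genes, also by brightest probe set, was between 0.01 and 0.15. These 5 contrasts share the ESC2 arrays, so they are not independent of each other. The ESC2 arrays were also those with the highest actin 3′ to 5′ ratio, averaging 1.53 against 1.13 to 1.28 in the other lines. Of the 20 fibroblast markers, 2 were called higher than ESC2 in IP14D-1, and 7 were lower in IP20D-3, 6 in IP36D-3, 6 in IP14D-101 and 4 in R1, where the last 2 lines each had 1 higher. The part of RNA quality and of feeder RNA in the Klf counts was not tested. The 4 lower calls in IP14D-101 were all Klf6, and the lower call in R1 was Klf9 1456341_a_at.

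**Figure D3:**
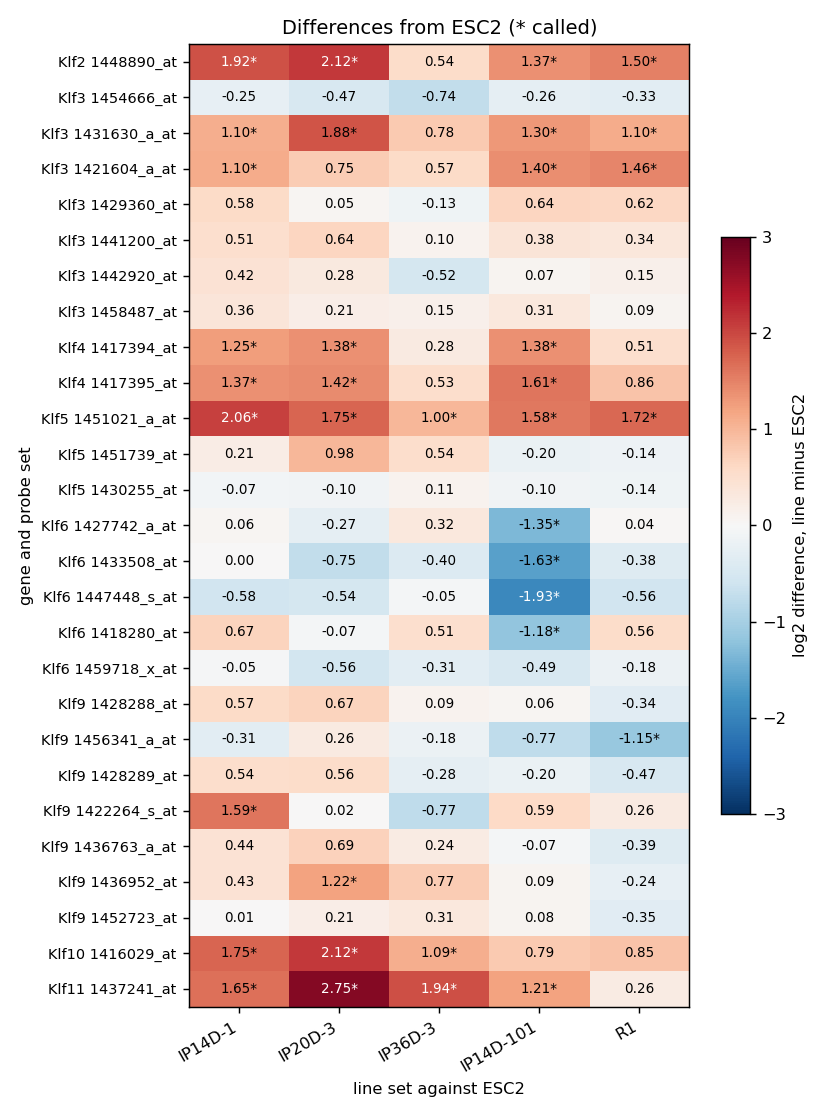
Log2 difference from ESC2 of all 27 Klf probe sets (rows) in the 5 other lines (columns), printed in each cell and coloured red where higher than ESC2 and blue where lower, with an asterisk where called. Klf5 1451021_a_at is called in all 5 lines and Klf11 in the 4 iPS lines, and the 4 called Klf6 cells of IP14D-101 run from -1.18 to -1.93.

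Against R1, the other ES line, the picture was narrower. IP20D-3 had 8 Klf probe sets called higher, against 7.4% of all probe sets, and 0 lower, against 4.31%. Of the 8, 5 were Klf9, and the count was 5 without IP20D-3 replicate 3. With the share of all probe sets in parentheses, IP14D-1 had 3 higher (3.2%) and 0 lower (1.08%), for Klf11, Klf9 1428289_at and Klf9 1422264_s_at, and IP36D-3 had 2 higher (3.92%) and 1 lower (2.15%), higher for Klf11 and Klf9 1436952_at and lower for Klf9 1422264_s_at. Of these Klf9 calls, 1422264_s_at in IP14D-1 stayed between 1.26 and 1.43 whichever array was left out, and the others did not all hold. For 1428289_at in IP14D-1 the difference was 0.927 without IP14D-1 replicate 2, 0.981 without IP14D-1 replicate 3 and 0.979 without R1 replicate 3. For 1436952_at in IP36D-3 it was 0.941 without IP36D-3 replicate 2 and 0.992 without R1 replicate 2, and for 1422264_s_at in IP36D-3 it was -0.984 without IP36D-3 replicate 1, -0.993 without IP36D-3 replicate 3 and -0.963 without R1 replicate 2. IP14D-101 had 0 higher (0.58%) and 4 lower (1.28%), and all 4 were Klf6. Klf2 was above R1 by 0.42 ± 0.09 in IP14D-1 and 0.62 ± 0.09 in IP20D-3, and the difference was -0.96 ± 0.09 in IP36D-3, with none of the 3 called. Klf5 differed from R1 by 0.34 in IP14D-1, 0.03 in IP20D-3, -0.71 in IP36D-3 and -0.14 in IP14D-101, again with no call. Klf10 was called above R1 in IP20D-3, by 1.26 ± 0.14.

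The iPS lines also differed among themselves. IP20D-3 had 4 Klf probe sets called higher than IP36D-3 (all probe sets 2.04%) and 0 lower (1.38%), with Klf2 at 1.58 ± 0.09 and Klf4 at 1.10 ± 0.07. IP14D-1 had 3 higher than IP36D-3 (1.4%) and 0 lower (1.74%), among them Klf2 at 1.38 ± 0.09 and Klf5 at 1.05 ± 0.08, the Klf5 call lost at 0.978 without IP36D-3 replicate 3. IP14D-1 had 1 higher (1.79%) and 1 lower (2.64%) than IP20D-3, Klf9 1422264_s_at and Klf11. IP14D-101 had 0 higher (0.953%) and 5 lower (3.02%) than IP14D-1, 0 higher (3.22%) and 8 lower (6.19%) than IP20D-3, and 3 higher (1.4%) and 4 lower (2.73%) than IP36D-3. Relative to IP20D-3 these lower calls took in Klf10 at -1.33 ± 0.14 and Klf11 at -1.53 ± 0.13 besides 3 of Klf6, and 1 of them, Klf9 1456341_a_at, was -0.938 without IP14D-101 replicate 3.

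As a comparison of cell types, the line is the sample, with 4 iPS lines against 2 ES lines. None of the 27 Klf probe sets was called, and 0 of 45037 probe sets were (0% of all). At an unadjusted p under 0.05, limma on line means gave 1 Klf probe set, Klf11, against 3.22% of all probe sets. Klf11 line means were 7.55 to 9.08 in the iPS lines, against 6.34 and 6.59 in the ES lines, a difference of 1.76 ± 0.40 (SE, 4 and 2 lines, unadjusted p = 0.00417 and adjusted p = 1). It was higher than both ES lines in 4 of 4 iPS lines. Klf10 averaged 9.75 ± 0.61 in iPS lines and 8.74 ± 0.60 in ES lines, and Klf4 averaged 10.91 ± 0.53 and 10.10 ± 0.36 in the same groups (SD over lines), with overlapping ranges. The iPS minus ES difference was 1.01 ± 0.43 for Klf10, 0.81 ± 0.36 for Klf4, 0.74 ± 0.57 for Klf2, 0.74 ± 0.51 for Klf5 and 0.52 ± 0.23 for Klf9, each with an adjusted p of 1 by limma. For Klf6 it was -0.33 ± 0.45 and for Klf3 -0.27 ± 0.19. The direction for Klf2 and Klf5 rests on ESC2: without that line the differences were -0.02 and -0.12. For Klf6 it rests on IP14D-101, without which the difference was 0.02. Every iPS line mean lay above both ES line means in 5 of the 27 Klf probe sets, against 4.67% of all probe sets, namely Klf11, 3 of Klf9 and 1 of Klf3, and below both in 0, against 4.58%. For Klf9 1428288_at, 1436952_at and 1452723_at the lowest iPS mean exceeded that of ESC2 by only 0.061, 0.093 and 0.009. The arrays of the 2 lines overlapped in each case, and 1452723_at lay under the array median. Klf3 1458487_at did not pass the F test over the 6 lines (adjusted p = 0.0566).

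**Figure D4:**
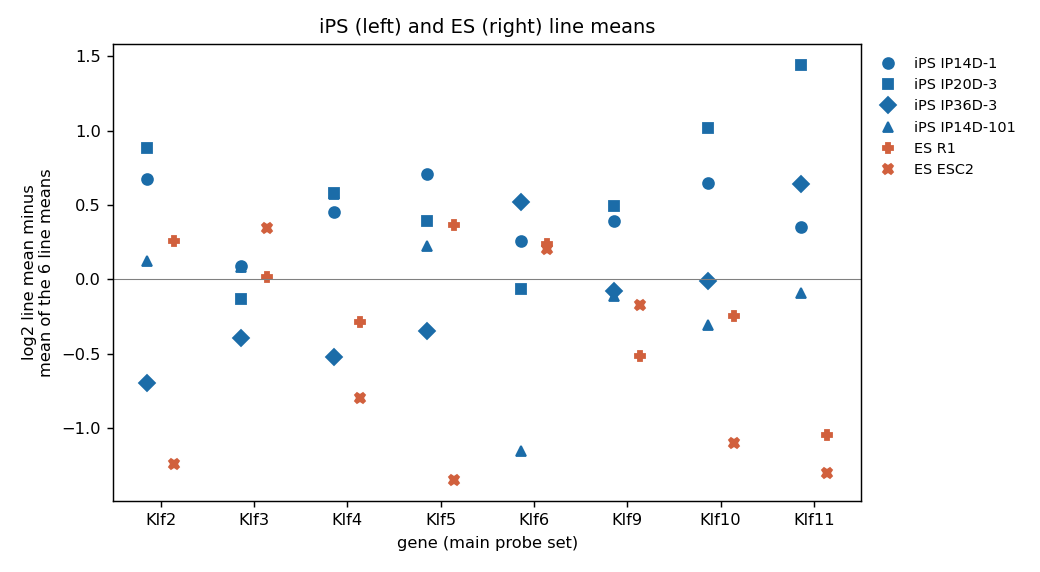
Line means of the brightest probe set of each gene, in log2 units and set against the mean of the 6 line means, with the 4 iPS lines in blue left of the 2 ES lines in orange. The iPS and ES ranges overlap for 6 of the 8 genes and are apart for Klf9 and Klf11. For Klf9 the lowest iPS mean, in IP14D-101, is only 0.061 above ESC2, and the arrays of these lines overlap. For Klf11 the gap between IP14D-101 and R1 is 0.956.

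Other genes of the same families and pathways were read from lists, by each gene's brightest probe set, and the shares in parentheses are those called over all 18193 genes read in that way. Of 18 other Krüppel-like and Sp factors 15 were measured, and 0 were called higher than ESC2 in any of the 5 lines, against 1.91% of all genes in IP36D-3 to 5.22% in IP20D-3. Lower than ESC2 were 1 in IP14D-1 (1.36%), 2 in IP20D-3 (3.38%), 1 in IP36D-3 (1.47%), 4 in IP14D-101 (4.06%) and 2 in R1 (3.75%). Sp3, a ubiquitous Sp factor, had differences from ESC2 of -1.59 in IP14D-1, -2.05 in IP14D-101 and -2.65 in R1. Sp5, a Wnt target, had differences of -2.48 in IP20D-3, -1.62 in IP36D-3 and -2.18 in IP14D-101, and Sp8 of -1.54 in IP20D-3 and -1.66 in IP14D-101. The difference was -1.24 for Klf7 in IP14D-101 and -1.04 for Klf12, a repressor that binds CtBP, in R1. The list's median difference from ESC2 lay between -0.38 in IP20D-3 and 0.17 in R1, against 0.01 and 0.15 over all genes in those lines. Against R1 the same list had members on both sides, with 2 higher in IP14D-1 (2.35%) and 0 lower (1.5%), 2 higher in IP20D-3 (6.76%) and 3 lower (5.94%), 2 higher in IP36D-3 (3.35%) and 1 lower (2.84%), and 0 higher in IP14D-101 (0.693%) and 3 lower (1.82%). The higher ones were Klf12, at 1.902 in IP20D-3, 1.61 in IP14D-1 and 1.32 for IP36D-3, and Sp3, at 2.08, 1.07 and 1.80 for the same lines in that order. Sp5 differed from R1 by -3.07 in IP20D-3, -2.21 in IP36D-3 and -2.78 in IP14D-101, Klf16 by -1.25 in IP20D-3, and Klf7 and Sp8 by -1.18 and -1.04 in IP14D-101.

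Of the 13 cofactors and ubiquitin ligases that act on Krüppel-like factors, all measured, 0 were called against ESC2 in any of the 5 lines in either direction, where at most 5.22% of all genes were called higher and 4.06% lower, so a count of 0 among 13 is near the background. The medians lay between -0.12 and 0.02. Against R1, Kat2b, a histone acetyltransferase, was called higher in all 4 iPS lines, by 1.12 in IP14D-1, 1.87 in IP20D-3, 1.27 in IP36D-3 and 1.08 in IP14D-101, and the histone deacetylase Hdac2 was higher in IP20D-3, by 1.06. These were the 1, 2, 1 and 1 calls of the list in those lines, with 0 lower, and the 4 contrasts share the R1 arrays.

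Genes of the LIF pathway and naive network around Klf2, Klf4 and Klf5 were also called higher than ESC2 more often than lower. Of 18 genes measured, and with the share of all genes in parentheses, IP14D-1 had 5 called higher than ESC2 (2.08%) and 0 lower (1.36%), IP20D-3 had 7 higher (5.22%) and 1 lower (3.38%), and IP36D-3 had 1 higher (1.91%) and 0 lower (1.47%). IP14D-101 had 11 higher (4.67%) and 0 lower (4.06%), and R1 had 5 higher (4.38%) and 2 lower (3.75%). The median difference was 0.39 in IP14D-1, 0.66 in IP20D-3, 0.37 in IP36D-3, 1.16 in IP14D-101 and 0.45 in R1, against medians over all genes of 0.06, 0.01, 0.05, 0.15 and 0.15 in the same order. Esrrb, an orphan nuclear receptor of the naive network, was called in all 5 lines, by 1.97 in IP14D-1, 2.13 in IP20D-3, 1.00 in IP36D-3, 2.19 in IP14D-101 and 1.33 in R1. Tbx3, a T-box factor downstream of LIF, was higher by 1.97 in IP14D-1, 3.11 in IP20D-3, 1.48 in R1 and 1.22 in IP14D-101. Zfp42, the pluripotency marker Rex1, was higher by 1.902 in IP14D-101 and 2.13 in R1. Nr0b1, an orphan receptor of the network also called Dax1, was higher by 1.69 in IP14D-1 and 2.51 in IP20D-3, and Mybl2, a Myb factor of cycling cells, by 1.77 in IP14D-1 and 1.66 in IP14D-101. Tcl1, an Akt coactivator, was higher by 2.70 in IP20D-3, and Tfcp2l1, a naive-network factor, by 1.51 in IP14D-101. Gbx2, a Stat3 target, was lower in IP20D-3, at -2.67, and Dppa3, a naive-state marker, was lower in R1, at -2.57.

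Genes induced by TGF-beta or serum were called in both directions. Of 13 measured of 14 listed, IP14D-1 had 3 called higher than ESC2 (2.08% of all genes) and 0 lower (1.36%), IP20D-3 had 1 higher (5.22%) and 4 lower (3.38%), and IP36D-3 had 3 higher (1.91%) and 0 lower (1.47%). IP14D-101 had 2 higher (4.67%) and 2 lower (4.06%), and R1 had 4 higher (4.38%) and 0 lower (3.75%). In IP20D-3, the line with the highest Klf10 and Klf11, the differences were -2.28 for Myc, -1.73 for the early-response gene Ier3 and -1.05 for the BMP target Id1, while Atf3 was higher by 2.41. The list's median there was -0.47, against 0.01 over all genes. In the same contrast 7 of 20 fibroblast markers were called lower and 0 higher, with a median of -0.57 and the largest differences in Thbs1 at -3.38, Lox at -2.88, Acta2 at -2.73 and Col5a2 at -2.51. Of 8 trophectoderm markers 4 were called lower and 0 higher, with a median of -0.64, namely Krt8 at -1.80, Cdx2 at -1.49, Eomes at -1.08 and Krt18 at -1.01. The mean per array was 4.51 to 4.72 in IP20D-3 and 5.53 to 5.66 in ESC2 for the fibroblast markers, and 5.92 to 6.23 in IP20D-3 and 6.84 to 6.91 in ESC2 for the trophectoderm markers. The part of these cell types in the list's values was not tested. Smad7, a feedback inhibitor of TGF-beta signalling, was higher by 1.46 in IP14D-1, 1.94 in IP14D-101 and 1.63 in R1. Junb, a subunit of AP-1, was higher by 1.10 in IP14D-1, 1.30 in IP36D-3, 1.57 in IP14D-101 and 2.61 in R1, and Atf3 by 2.16 in IP14D-1 and 1.17 in R1. Id1 was higher by 1.01 in IP36D-3 and 1.30 in R1, and the early-response gene Ier2 by 1.12 in IP36D-3. In IP14D-101 the BMP targets Id2 and Id3 were lower, at -1.63 and -1.55. Of 8 genes induced by glucocorticoids, as Klf9 is, 0 were called in IP14D-1, and in IP20D-3 3 were lower (3.38% of all genes), Cdkn1a at -1.21, the kinase Sgk1 at -1.08 and Errfi1 at -1.04. In IP36D-3 1 was lower (1.47%), Cdkn1a at -1.22, in IP14D-101 1 was lower (4.06%), Errfi1 at -1.09, and in R1 1 was higher (4.38%), the phosphatase Dusp1 at 1.20.

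For each called gene, the 3 genes most like it in pattern were found by Pearson's r over the 6 line means, among 8950 genes with a mean of at least 6. With 6 points and many candidates such values are a description. Klf2 was most like Nrd1 (r = 0.978), Mau2 and Slc7a5, and Klf4 like Atp5j (r = 0.971), Tef and Fn1. Klf5 was most like Fbxl20 (r = 0.987), Syk and Ctsd, and Klf6 like Usp27x (r = 0.986), Marveld1 and Mcts1. Klf9 was most like Dpp4 (r = 0.990), Dbf4 and 1810013L24Rik. The closest match of all was that of Klf10 with Atp6v0b (r = 0.995), a subunit of the vacuolar proton pump, followed by Cmc1 and Atp6v0d1, another subunit of that pump. Klf11 was most like Ccdc160 (r = 0.991), Idh3g and Klc4.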

How the data were processed

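Biotin-labelled RNA of 6 lines, 3 arrays each, was hybridised to Affymetrix arrays. The authors deposited linear probe set intensities made with RMA, a step recorded in the submitters' processing notes and in the design text. For its version, none is given in the sources used here. RMA quantile-normalises the arrays, so a shift common to all genes is removed. Array medians of the deposited intensities were 29.2 to 30.5.

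Of 45101 probe sets, 64 controls were left out. Symbols came from the platform annotation; 34945 probe sets had 1 symbol, 932 several and 9160 none, and 34741 of the first were found in a RefSeq gene table with 0 symbols changed. Log2 intensities were fitted per probe set in limma 3.58.1 (R 4.3.3), with a mean per line over 18 arrays (12 residual degrees of freedom), 15 line contrasts, a moderated F test, and a fit on 6 line means for iPS against ES. Benjamini-Hochberg adjustment ran over 45037 probe sets. Python 3.11.15 made the summaries. The fits were tested on simulated data in which the lines differed only by added changes. Such data do not test the iPS against ES fit under real differences between lines.

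All 27 Klf probe sets are described, with the brightest standing for its gene; list genes are named where called, up to 4 per contrast by size of difference (Esrrb in IP20D-3, Tbx3 in IP14D-101 and the uncalled markers Afp and Lrp2 fell outside this and were added after their values were seen); genes of like pattern are the 3 with the highest r. Medians over all genes use 18193 genes. The members and lists were chosen with earlier results of these data known. Replicate numbers were not used as pairs in the main fits. Alternatives were 1 probe set per gene, a minimum mean of 6, equal array medians, repeated quantile normalisation, log2(intensity + 16), an intensity trend with a robust prior, array weights, a replicate block, fits on only the 2 lines of a contrast, and leaving out each array or line. The source fibroblasts were not analysed here.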

Additional observations from a re-analysis of the deposited data

Results flagged for a closer look

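Among the 4 iPS line means, IP36D-3 lay far below the others for Klf4 1417394_at: its gap to the nearest line, divided by the range of the 4 means, was 0.883, above Dixon's critical value for 4 samples. The line means were 11.09 ± 0.04 in IP14D-1, 11.22 ± 0.04 in IP20D-3, 10.12 ± 0.04 in IP36D-3 and 11.22 ± 0.10 in IP14D-101 (SD, n = 3 arrays each).

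For Klf5 1430255_at the same line lay above the other 3, with a ratio of 0.843, at line means of 3.46 ± 0.07 in IP14D-1, 3.44 ± 0.13 in IP20D-3, 3.64 ± 0.18 in IP36D-3 and 3.43 ± 0.12 in IP14D-101, all under the array median. Chance gives such a gap in about 1 of 20 groups, and 27 were examined.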

How the results depend on the processing

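The 83 calls of Klf probe sets over the 15 line contrasts became 76 to 83 under other scalings, filters, priors, weights and the replicate block, and 78 to 84 when 1 array was left out; calls at the fold threshold, mostly of Klf9, came and went. With 1 probe set per gene, which leaves 8 Klf probe sets instead of 27, the total was 38 and the F test called 7. The count then was 5 against ESC2 in IP14D-1, IP20D-3 and IP14D-101 and 2 in R1; against R1 it was 1 in IP14D-1, 3 in IP20D-3, 1 in IP36D-3 and 1 in IP14D-101; it was 1 for IP14D-1 against IP20D-3, and for IP14D-101 it was 1 against IP14D-1, 3 against IP20D-3 and 2 against IP36D-3. With log2(intensity + 16) the count for IP36D-3 against R1 was 1 in place of 3. The counts with 1 probe set per gene have no share of all genes beside them and show only how the count depends on this setting.

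Leaving out 1 array gave 17 to 20 calls by the F test, 1 to 3 in IP36D-3 against ESC2, 5 to 8 in IP20D-3 against R1, 1 to 2 in IP14D-1 against IP20D-3, and 0 to 0 for iPS against ES. For iPS against ES, fits on arrays in place of line means raised the count of 0. It was 1 (Klf11) with the replicate block and the line as a random block, which allows for correlation among arrays of a line. Fits that count arrays of a line as separate gave 2 (Klf10 and Klf11) with fixed line means over 18 arrays. They gave 6 with arrays as replicates within the B6 x D2 F1 lines, where ESC2 is the only ES line. No share of all probe sets stands beside these counts, so they show only how the count depends on the fit. The iPS minus ES difference reversed for Klf6, to 0.036 within the B6 x D2 F1 lines and 0.018 without IP14D-101, and for Klf2 and Klf5, to -0.015 and -0.122 without ESC2.

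Same-numbered arrays of different lines had correlated deviations with a median r of 0.087 (-0.381 to 0.518), against -0.061 (-0.546 to 0.370) for different numbers, and 13 of 18 arrays correlated best with their own number, a hint from the data and not from the design. Since not every same-numbered pair exceeded 0.1 and no label ties the numbers to a shared source, they were not taken as pairs; the replicate block left the line contrasts at 83 calls. Probe sets near the array median have little signal over background, which limits 5 of the 27. With 3 arrays per line and 2 ES lines, a missed threshold does not show that lines or cell types are alike.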
